A study of Mus musculus with 6 samples.

Results

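The lysosome genes examined here were 42 of the 48440 genes in the deposited count table. They were chosen by name, as genes of lysosomal enzymes and membrane proteins, the proton pump V-ATPase and the transcription factors TFEB and TFE3. None was chosen by its value, but earlier results of these data were known when the list was drawn up. The cells were mouse ovarian surface epithelial cells in culture, the layer that covers the ovary. RNA was taken 7 days after transduction with an adenovirus for Cre recombinase and GFP (Ad-Cre-GFP, genotype labelled Lats1/2 knockout, 3 libraries) or for GFP alone (Ad-GFP, genotype labelled WT, 3 libraries). Both groups received virus and GFP. The labels give neither the strain, age or pooling of the mice, nor whether the Ad-GFP cells carry the alleles that Cre deletes. Cre came from the virus and was not restricted to a cell type. Effects of losing Lats1 and Lats2, of Cre itself and of other differences between the cultures cannot be told apart here.

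The lysosome is the acidic compartment in which cells break down proteins, glycans, lipids and nucleic acids that arrive by endocytosis or autophagy. Its enzymes work at low pH, which V-ATPase maintains by pumping protons across the membrane, and most soluble enzymes are sorted to it through mannose 6-phosphate tags. TFEB and TFE3 bind the CLEAR element in the promoters of many lysosomal genes, and the mTORC1 kinase keeps them out of the nucleus when nutrients are plentiful. LATS1 and LATS2 are the Hippo pathway kinases that restrain the coactivators YAP and TAZ.

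Library totals ran from 27734527 to 30304033 counts with Ad-Cre-GFP and from 18690235 to 25363462 counts with Ad-GFP, so every Ad-Cre-GFP library was deeper than every Ad-GFP library. Lats1 was at 37.1 ± 1.36 CPM with Ad-Cre-GFP and 159 ± 8.73 CPM with Ad-GFP (SD, n = 3 each; CPM are counts scaled to 1000000 per library and by TMM), and Lats2 at 98.7 ± 1.97 CPM with Ad-Cre-GFP and 129.6 ± 2.18 CPM with Ad-GFP. Both fell (-2.10 ± 0.04 and -0.39 ± 0.03 on the log2 scale, ± SE); the sources used here do not say which exons Cre removes, so these levels do not measure the deletion. Markers of the labelled cell type were detected at very different levels: the keratin Krt18 averaged 596 CPM with Ad-Cre-GFP and 564 CPM with Ad-GFP, and E-cadherin, Cdh1, averaged 971 CPM with Ad-Cre-GFP and 1314 CPM with Ad-GFP, while Krt7 averaged 4.91 CPM with Ad-Cre-GFP and 1.86 CPM with Ad-GFP, and Lhx9 0.297 CPM with Ad-Cre-GFP and 0.623 CPM with Ad-GFP. Ad-GFP replicate 3, the shallowest library, had a score of 18.69 on the second principal component, which held 3.15% of the variance, against -8.85 and -11.08 for the other Ad-GFP libraries. It was the highest Ad-GFP library for 21 of the 42 genes and the lowest for 4. Ad-Cre-GFP replicate 2 was likewise the highest of its group for 21 genes, and the lowest for 9.

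Most enzyme genes fell in the Ad-Cre-GFP cells while the 4 V-ATPase genes among the 42 rose. Of the 42 genes, 41 passed the filter on low counts, and 12 were called higher and 21 lower at a Benjamini-Hochberg adjusted p under 0.05 (edgeR quasi-likelihood test across all 14811 genes tested); 8 were not called. That is 80.5% called, beside 69.8% of all genes tested. The share called lower was 51.2%, beside 35.8% of all genes tested, and the share called higher was 29.3%, beside 34.0%. Among the 29 tested genes of enzymes and prosaposin, 17 were called lower and 6 higher, and 6 were not called. The median log2 fold change of the 41 genes was -0.15, and that of all genes tested was -0.0065. Without Ad-GFP replicate 3, 11 were called higher and 21 lower. In bulk RNA, fewer cells of a type and less RNA per cell cannot be told apart.

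The changes were small. Called rises ran from 1.08-fold to 1.35-fold and called falls from 1.11-fold to 2.14-fold. Man2b1 and Arsa were the 2 genes past a 2-fold change, both lower, or 2 of 41 beside 13.8% of all genes tested. All 10 called genes with a log2 fold change of at least 0.5 in size had fallen. The 33 called genes were also the 33 whose libraries did not overlap between the groups; among all genes tested, 73.0% did not overlap.

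**Figure D1:**
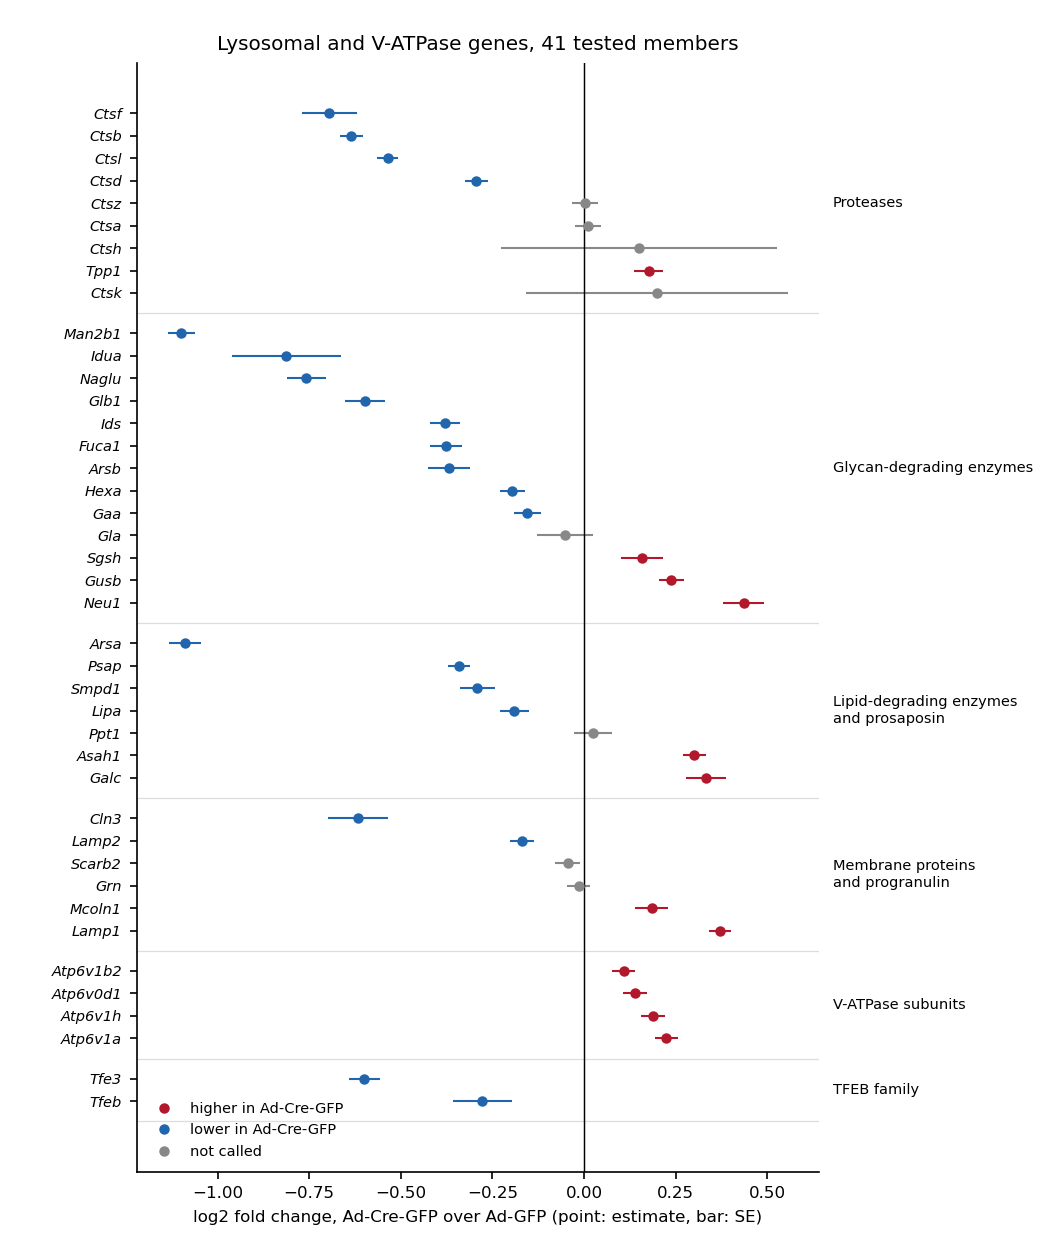
Log2 fold change of the 41 tested genes, Ad-Cre-GFP over Ad-GFP, by role, with standard errors as bars; red genes were called higher, blue genes lower and grey genes were not called. All 4 V-ATPase genes lie above 0, both TFEB family genes lie below 0, and the lowest points are Man2b1 (-1.10) and Arsa (-1.09).

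Summed over the 42 genes, the members took 0.471%, 0.480% and 0.478% of the counts in the Ad-Cre-GFP libraries, against 0.544%, 0.547% and 0.558% in the Ad-GFP libraries. The 30 genes of enzymes and prosaposin summed to 2946 ± 25.6 CPM with Ad-Cre-GFP and 3805 ± 67.9 CPM with Ad-GFP (SD, n = 3 each, CPM without TMM scaling), a ratio of 0.774. The 4 V-ATPase genes summed to 578 ± 7.49 CPM with Ad-Cre-GFP and 525 ± 0.584 CPM with Ad-GFP, a ratio of 1.10. The enzyme sum was therefore 5.06, 5.05 and 5.19 times the V-ATPase sum in the Ad-Cre-GFP libraries, against 7.14, 7.20 and 7.38 times in the Ad-GFP libraries. These ratios are descriptions without a test, since 3 libraries against 3 cannot give an exact permutation p below 0.10.

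By role, the sums moved in different directions. The protease genes summed to 1191 ± 11.1 CPM with Ad-Cre-GFP and 1619 ± 26.6 CPM with Ad-GFP, the genes of glycan breakdown to 648 ± 6.68 CPM with Ad-Cre-GFP and 821 ± 22.5 CPM with Ad-GFP, and those of lipid breakdown to 1107 ± 11.9 CPM with Ad-Cre-GFP and 1364 ± 20.9 CPM with Ad-GFP. The membrane protein and progranulin genes summed to 1187 ± 16.9 CPM with Ad-Cre-GFP and 1092 ± 10.3 CPM with Ad-GFP, and Lamp1 alone took 14.6% of all member counts with Ad-Cre-GFP and 10.02% with Ad-GFP. These sums rest on a few genes: the 6 most abundant members held 54.9% of all member counts with Ad-Cre-GFP and 56.0% with Ad-GFP.

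Promoter sequences were examined for the CLEAR core, TCACGTGA, because it is the element that TFEB and TFE3 are known to bind. Its letters read the same on both strands and contain the E-box CACGTG. RefSeq promoters (GRCm38.p6, 250 bases before to 50 bases after a transcript start) were found for 37 of the 42 genes, 43 promoters in all. TCACGTGA was present in 7 of these 43 promoters (16.3%), against 0.974% of all 32841 promoters in the table. The element is known from promoters of lysosomal genes and the members were chosen as such genes, so this excess is no finding of these counts. CACGTG was present in 34.9% of the member promoters, against 7.15% of all. The core of the motif bound by the YAP partners TEAD, GGAATG or its complement CATTCC, was present in 14.0% of the member promoters, against 14.7% of all. The median GC content of the member promoters was 56.3%, against 52.7% for all promoters.

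The 7 genes with the CLEAR core went in different directions. Atp6v0d1, Atp6v1a and Mcoln1 were called higher, Cln3 and Ctsd were called lower, and Ctsa and Gla were not called. Of 20 genes called lower with a promoter in the table, 2 held the core; of 9 called higher, 3 did. A match is a description of these letters, and no binding was measured. Shown are 1 V-ATPase gene and the channel gene Mcoln1, which rose, Ctsd and Cln3, which fell, and Ctsa, which was not called and holds the core at both sides of its start; capitals mark TCACGTGA.
Atp6v1a, chr16:44139210-44139509, minus strand: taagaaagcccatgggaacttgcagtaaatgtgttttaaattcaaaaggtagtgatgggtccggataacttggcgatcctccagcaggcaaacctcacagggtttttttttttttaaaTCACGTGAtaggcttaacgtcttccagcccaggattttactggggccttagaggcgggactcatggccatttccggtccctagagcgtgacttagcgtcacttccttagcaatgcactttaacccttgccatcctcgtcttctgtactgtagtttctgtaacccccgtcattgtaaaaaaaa
Mcoln1, chr8:3500269-3500568, plus strand: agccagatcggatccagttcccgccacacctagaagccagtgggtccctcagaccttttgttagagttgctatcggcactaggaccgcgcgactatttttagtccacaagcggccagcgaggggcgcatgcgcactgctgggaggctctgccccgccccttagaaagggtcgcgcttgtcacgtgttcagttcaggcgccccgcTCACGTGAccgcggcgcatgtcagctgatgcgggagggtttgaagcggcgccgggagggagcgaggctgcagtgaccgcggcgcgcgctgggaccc
Ctsd, chr7:142387778-142388077, minus strand: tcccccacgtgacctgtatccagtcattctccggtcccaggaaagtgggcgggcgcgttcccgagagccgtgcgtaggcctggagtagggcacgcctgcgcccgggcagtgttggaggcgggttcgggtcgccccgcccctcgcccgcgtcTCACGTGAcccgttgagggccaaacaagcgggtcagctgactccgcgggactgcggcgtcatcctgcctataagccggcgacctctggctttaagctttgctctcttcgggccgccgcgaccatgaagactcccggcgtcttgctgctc
Cln3, chr7:126583187-126583486, minus strand: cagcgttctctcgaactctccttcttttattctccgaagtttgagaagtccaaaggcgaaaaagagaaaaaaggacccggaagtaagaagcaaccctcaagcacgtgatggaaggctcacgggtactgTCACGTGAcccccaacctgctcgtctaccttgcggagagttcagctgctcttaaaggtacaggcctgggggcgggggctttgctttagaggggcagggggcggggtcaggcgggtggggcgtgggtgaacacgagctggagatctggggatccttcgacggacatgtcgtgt
Ctsa, chr2:164833523-164833822, plus strand: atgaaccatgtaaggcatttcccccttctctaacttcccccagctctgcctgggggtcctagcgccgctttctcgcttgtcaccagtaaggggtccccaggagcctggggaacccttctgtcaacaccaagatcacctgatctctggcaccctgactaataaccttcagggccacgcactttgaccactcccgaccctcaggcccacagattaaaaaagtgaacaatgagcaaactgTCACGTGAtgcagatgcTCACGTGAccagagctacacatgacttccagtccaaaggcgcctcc
The core began at -132 from the start site in Atp6v1a, at -46 in Mcoln1, at -99 in Ctsd, at -122 in Cln3 and at -13 and +5 in Ctsa.

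Among the protease genes, Ctsb, Ctsl, Ctsd and Ctsf fell and Tpp1 rose. Of 9 tested, 4 fell (44.4%, beside 35.8% of all genes tested), 1 rose (11.1%, beside 34.0%) and 4 were not called. The share called in either direction was 55.6%, beside 69.8%. Ctsb (cathepsin B, chromosome 14, 63122462 to 63145923, GRCm38 with GENCODE M21 annotation), a cysteine protease, was at 323, 341 and 330.4 CPM in the Ad-Cre-GFP libraries, against 507, 505 and 532 CPM in the Ad-GFP libraries (log2 fold change -0.64 ± 0.03 (SE), adjusted p = 7.11e-14). Ctsl, cathepsin L (chromosome 13, 64359337 to 64370890), also a cysteine protease, was at 359, 364 and 375 CPM in the Ad-Cre-GFP libraries, against 525, 529 and 539 CPM in the Ad-GFP libraries (log2 fold change -0.54 ± 0.03 (SE), adjusted p = 4.41e-13). The lowest Ad-GFP library of each gene lay more than 100 CPM above the highest Ad-Cre-GFP library. The exons of Ctsb overlap those of Fdft1 on the other strand by 774 bases, and it is not known here whether the counting used strand. Over all libraries Fdft1 had 12606 counts and Ctsb 62735.

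Ctsd, the aspartic protease cathepsin D whose promoter is shown above, was at 207, 213 and 208 CPM in the Ad-Cre-GFP libraries, against 247, 261 and 262 CPM in the Ad-GFP libraries (log2 fold change -0.29 ± 0.03 (SE), adjusted p = 2.72e-08). Ctsf, another cysteine cathepsin, was expressed at a low level, 11.8, 12.7 and 11.5 CPM in the Ad-Cre-GFP libraries, against 18.5, 18.3 and 21.9 CPM in the Ad-GFP libraries (log2 fold change -0.70 ± 0.08 (SE), adjusted p = 3.77e-08). Both fell without overlap between the groups, Ctsf by 1.62-fold and Ctsd by 1.23-fold. Tpp1, tripeptidyl peptidase, lost in a form of neuronal ceroid lipofuscinosis, was the protease gene that rose, with 77.4, 72.9 and 71.3 CPM in the Ad-Cre-GFP libraries, against 66.0, 64.1 and 66.2 CPM in the Ad-GFP libraries (log2 fold change 0.18 ± 0.04 (SE), adjusted p = 0.000387).

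Ctsz and Ctsa were not called. Ctsz, the carboxypeptidase cathepsin Z, had 139, 131 and 129 CPM in the Ad-Cre-GFP libraries, against 129, 136 and 133 CPM in the Ad-GFP libraries (log2 fold change 0.0026 ± 0.03 (SE), adjusted p = 0.951). Ctsa, which encodes the protective protein of beta-galactosidase and neuraminidase, averaged 80.2 ± 2.45 CPM with Ad-Cre-GFP and 79.6 ± 0.722 CPM with Ad-GFP (log2 fold change 0.012 ± 0.04 (SE), adjusted p = 0.778). In both genes the groups overlapped, and the Ad-Cre-GFP libraries were the more scattered.

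The cathepsin genes Ctsk, Ctsh and Ctss were at or near the limit of detection. Ctsk, the collagen-degrading cathepsin of osteoclasts, had 17, 12 and 10 counts with Ad-Cre-GFP and 7, 11 and 8 counts with Ad-GFP. Ctsh had 12, 16 and 14 counts with Ad-Cre-GFP and 4, 14 and 11 counts with Ad-GFP. Ctss, a cathepsin of antigen-presenting cells, had 0 counts in every library, which allows up to 3 counts in each, 0.0990 to 0.108 CPM with Ad-Cre-GFP and 0.118 to 0.161 CPM with Ad-GFP, counting error only. At this depth a difference in these 3 genes was not detectable; the log2 fold changes of Ctsk and Ctsh were 0.20 ± 0.36 and 0.15 ± 0.38 (adjusted p = 0.632 and 0.736).

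Genes of glycan-degrading enzymes mostly fell: 9 of 13 were called lower (69.2%, beside 35.8% of all genes tested) and 3 higher (23.1%, beside 34.0%). Gla was not called, and the median log2 fold change was -0.37. Man2b1 (chromosome 8, 85083270 to 85098282), lysosomal alpha-mannosidase, which removes the mannose residues of glycoprotein glycans, was at 67.1, 62.7 and 64.0 CPM in the Ad-Cre-GFP libraries, against 134, 136 and 146 CPM in the Ad-GFP libraries (log2 fold change -1.10 ± 0.04 (SE), adjusted p = 1.37e-16). It fell 2.14-fold, the largest change among the 41 genes tested. Naglu, the alpha-N-acetylglucosaminidase of heparan sulfate breakdown, was at 23.7, 23.4 and 21.8 CPM in the Ad-Cre-GFP libraries, against 37.1, 40.1 and 39.4 CPM in the Ad-GFP libraries (log2 fold change -0.76 ± 0.05 (SE), adjusted p = 2.24e-11). Idua, the iduronidase that removes iduronic acid from heparan and dermatan sulfate, was expressed at a low level, 3.11, 2.84 and 3.50 CPM in the Ad-Cre-GFP libraries, against 4.28, 5.68 and 6.73 CPM in the Ad-GFP libraries (log2 fold change -0.81 ± 0.15 (SE), adjusted p = 6.08e-05). Its lowest Ad-GFP library was close to the highest Ad-Cre-GFP library, but the groups did not overlap. Idua shares 124 exon bases with Dgkq on the other strand, which had 1898 counts over all libraries where Idua had 638.

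Glb1, lysosomal beta-galactosidase, was at 22.0, 24.2 and 23.7 CPM in the Ad-Cre-GFP libraries, against 35.1, 33.9 and 37.1 CPM in the Ad-GFP libraries (log2 fold change -0.60 ± 0.05 (SE), adjusted p = 2.12e-09), and the groups did not overlap. Some of its exon bases, 165 or 5.5%, are shared with Tmppe on the same strand. Over all libraries Tmppe had 3718 counts and Glb1 4348. How reads there were counted is not known here, so the count of Glb1 is uncertain. Smaller falls were those of Ids, iduronate sulfatase (-0.38 ± 0.04), Fuca1, alpha-fucosidase (-0.38 ± 0.04), Arsb, the sulfatase of dermatan sulfate (-0.37 ± 0.06), Hexa, the alpha chain of beta-hexosaminidase (-0.20 ± 0.03), and acid alpha-glucosidase, Gaa, which degrades glycogen (-0.15 ± 0.04), with adjusted p from 8.05e-08 to 0.000769. In the 5 genes every Ad-Cre-GFP library lay below every Ad-GFP library.

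Neu1, Gusb and Sgsh moved the other way. Neu1, the lysosomal neuraminidase that removes sialic acid, was at 30.3, 29.2 and 31.8 CPM in the Ad-Cre-GFP libraries, against 22.2, 21.6 and 23.9 CPM in the Ad-GFP libraries (log2 fold change 0.44 ± 0.06 (SE), adjusted p = 4.07e-07), the largest rise among the members. Gusb, beta-glucuronidase, was at 93.8, 98.7 and 93.5 CPM in the Ad-Cre-GFP libraries, against 79.0, 81.9 and 81.5 CPM in the Ad-GFP libraries (log2 fold change 0.24 ± 0.04 (SE), adjusted p = 3.28e-06). Sgsh, the heparan N-sulfatase, was at 22.8, 22.7 and 22.5 CPM in the Ad-Cre-GFP libraries, against 21.2, 20.6 and 19.0 CPM in the Ad-GFP libraries (log2 fold change 0.16 ± 0.06 (SE), adjusted p = 0.0174). All 3 rose without overlap. The DESeq2 test did not call Sgsh (adjusted p = 0.0539), nor did the edgeR test that left out Ad-GFP replicate 3 (adjusted p = 0.0765); over the alternatives its adjusted p ran from 0.0114 to 0.0765. Sgsh overlaps Card14 on the other strand over 955 exon bases, where Card14 had 63 counts in all and Sgsh 3310. Gla, alpha-galactosidase A, averaged 11.2 ± 0.780 CPM with Ad-Cre-GFP and 11.6 ± 0.325 CPM with Ad-GFP (log2 fold change -0.052 ± 0.08 (SE), adjusted p = 0.561).

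CTSA, GLB1 and NEU1 proteins are known to form a complex in the lysosome, and the 3 genes had different calls. Ctsa was not called (0.012 ± 0.04), Glb1, whose count is uncertain, fell (-0.60 ± 0.05) and Neu1 rose (0.44 ± 0.06).

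**Figure D2:**
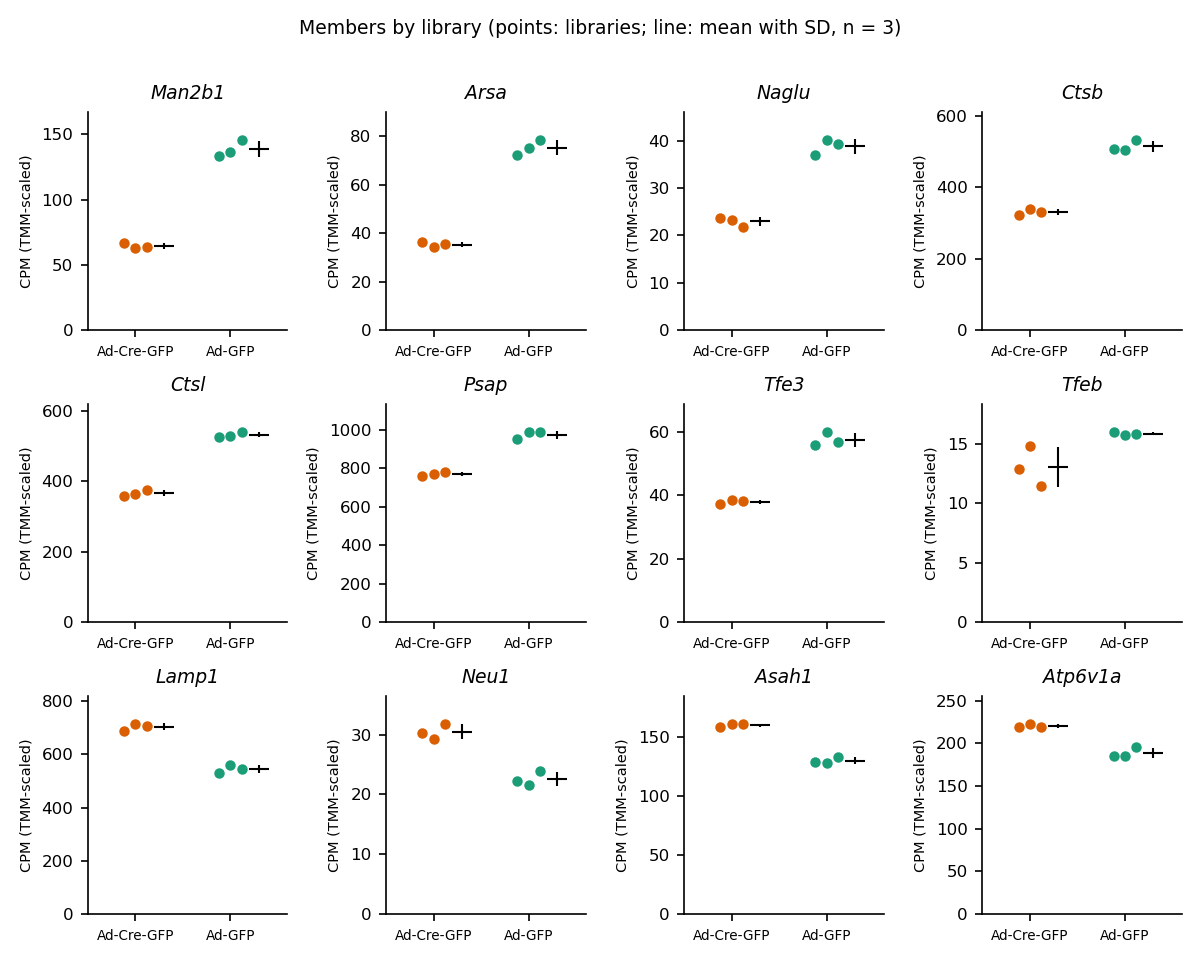
TMM-scaled CPM of 12 genes in each library, Ad-Cre-GFP left and Ad-GFP right, with the mean and SD of 3 libraries as a line beside the points. The groups do not overlap in any of the 12 panels; the Ad-Cre-GFP libraries of Tfeb run from 11.4 to 14.8 CPM, just under its lowest Ad-GFP library at 15.7 CPM.

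Of the 7 genes of lipid breakdown, 4 fell (57.1%, beside 35.8% of all genes tested), 2 rose (28.6%, beside 34.0%) and Ppt1 was not called. Arsa (chromosome 15, 89472476 to 89477425), arylsulfatase A, which removes the sulfate of sulfatide and is deficient in metachromatic leukodystrophy, was at 36.2, 34.1 and 35.7 CPM in the Ad-Cre-GFP libraries, against 72.2, 75.00 and 78.3 CPM in the Ad-GFP libraries (log2 fold change -1.09 ± 0.04 (SE), adjusted p = 1.23e-15). It fell 2.13-fold; an antisense RNA across its exons, C230037L18Rik, had 69 counts where Arsa had 8031. Psap (chromosome 10, 60277627 to 60302597), prosaposin, the precursor of the saposins that present sphingolipids to their enzymes, was at 759, 769 and 782 CPM in the Ad-Cre-GFP libraries, against 951, 989 and 987 CPM in the Ad-GFP libraries (log2 fold change -0.34 ± 0.03 (SE), adjusted p = 8.32e-10). Psap took the most counts of any member in both groups, 16.0% of all member counts with Ad-Cre-GFP and 18.0% with Ad-GFP.

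Asah1 and Galc rose. Asah1, acid ceramidase, was at 159, 161 and 161 CPM in the Ad-Cre-GFP libraries, against 129, 128 and 133 CPM in the Ad-GFP libraries (log2 fold change 0.30 ± 0.03 (SE), adjusted p = 1.48e-08). Galc, the galactosylceramidase that is deficient in Krabbe disease, was at 24.2, 24.4 and 23.9 CPM in the Ad-Cre-GFP libraries, against 19.9, 18.6 and 19.1 CPM in the Ad-GFP libraries (log2 fold change 0.33 ± 0.05 (SE), adjusted p = 1.48e-05). In both genes every Ad-Cre-GFP library lay above every Ad-GFP library. Smpd1, acid sphingomyelinase, fell by 0.29 on the log2 scale (SE 0.05) and Lipa, lysosomal acid lipase, by 0.19 (SE 0.04). Ppt1, the thioesterase that removes palmitate from proteins, averaged 33.1 ± 1.59 CPM with Ad-Cre-GFP and 32.6 ± 1.59 CPM with Ad-GFP (log2 fold change 0.025 ± 0.05 (SE), adjusted p = 0.678); its exons share 129 bases with Cap1 on the other strand, which had 60875 counts against 5007.

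Membrane proteins and progranulin went both ways: 2 rose, 2 fell and 2 were not called. The shares called higher and lower, 33.3% each, were close to the 34.0% and 35.8% of all genes tested. Lamp1 (chromosome 8, 13159161 to 13175338), the most abundant glycoprotein gene of the lysosomal membrane here, was at 689.7, 714 and 708 CPM in the Ad-Cre-GFP libraries, against 530.3, 558 and 544 CPM in the Ad-GFP libraries (log2 fold change 0.37 ± 0.03 (SE), adjusted p = 3.18e-10). Lamp2, its relative that also serves chaperone-mediated autophagy, was at 255, 261 and 260.1 CPM in the Ad-Cre-GFP libraries, against 292, 279 and 303 CPM in the Ad-GFP libraries (log2 fold change -0.17 ± 0.03 (SE), adjusted p = 8.3e-05). The pair thus moved in opposite directions, Lamp1 up 1.29-fold and Lamp2 down 1.12-fold.

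Mcoln1, the calcium channel TRPML1 of the lysosomal membrane, was at 44.0, 41.1 and 42.2 CPM in the Ad-Cre-GFP libraries, against 37.4, 36.6 and 38.1 CPM in the Ad-GFP libraries (log2 fold change 0.18 ± 0.05 (SE), adjusted p = 0.00102). Cln3, a membrane protein lost in juvenile neuronal ceroid lipofuscinosis, was at 8.07, 8.16 and 7.34 CPM in the Ad-Cre-GFP libraries, against 11.8, 11.5 and 13.04 CPM in the Ad-GFP libraries (log2 fold change -0.62 ± 0.08 (SE), adjusted p = 8.7e-07). Cln3 overlaps Apobr on the other strand over 442 exon bases, where Apobr had 136 counts in all and Cln3 1480. Both genes carry the CLEAR core shown above, Mcoln1 rising and Cln3 falling. Mcoln1 also holds a stretch of 381 to 397 bases that is 91.4% to 95.2% identical to parts of 5 other annotated genes, so its count is uncertain. Scarb2, the receptor that carries glucocerebrosidase to the lysosome, averaged 79.7 ± 1.13 CPM with Ad-Cre-GFP and 82.2 ± 1.497 CPM with Ad-GFP (log2 fold change -0.044 ± 0.03 (SE), adjusted p = 0.255). Grn, progranulin, a secreted protein that is processed in lysosomes, averaged 111 ± 1.64 CPM with Ad-Cre-GFP and 112 ± 1.31 CPM with Ad-GFP (log2 fold change -0.014 ± 0.03 (SE), adjusted p = 0.702).

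All 4 V-ATPase genes rose, each by less than 1.2-fold, beside 34.0% of all genes tested called higher. Atp6v1a (chromosome 16, 44085402 to 44139705), the catalytic subunit A, was at 219, 223 and 219 CPM in the Ad-Cre-GFP libraries, against 185, 186 and 195 CPM in the Ad-GFP libraries (log2 fold change 0.22 ± 0.03 (SE), adjusted p = 1.2e-06). Atp6v1b2, the B subunit that completes the ATP-binding sites, was at 137, 137 and 134 CPM in the Ad-Cre-GFP libraries, against 125, 130.0 and 123 CPM in the Ad-GFP libraries (log2 fold change 0.11 ± 0.03 (SE), adjusted p = 0.00478). Atp6v1h, the H subunit that bridges the soluble and the membrane sector, was at 111, 115 and 109 CPM in the Ad-Cre-GFP libraries, against 100.4, 96.7 and 97.8 CPM in the Ad-GFP libraries (log2 fold change 0.19 ± 0.03 (SE), adjusted p = 3.35e-05). In each gene the lowest Ad-Cre-GFP library was above the highest Ad-GFP library, and the gap was smallest in Atp6v1b2. The groups did not overlap in 73.0% of all genes tested either. Atp6v0d1, subunit d of the membrane sector, was at 116, 119.7 and 116 CPM in the Ad-Cre-GFP libraries, against 105, 109 and 105 CPM in the Ad-GFP libraries (log2 fold change 0.14 ± 0.03 (SE), adjusted p = 0.000701). The 4 rises were called under every one of the 15 alternative settings.

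Other V-ATPase genes rose more often than they fell. Of 28 others listed, 23 were tested, 14 rose, 3 fell and 6 were not called, with a median log2 fold change of 0.19; among all genes tested 34.0% were called higher. Counting members and others, 13 of 18 tested subunit genes rose and 2 fell. The rises by the naming rule were those of the assembly factor gene Tmem199 (0.86 ± 0.06) and of the small membrane-sector genes Atp6v0e (0.48 ± 0.03) and Atp6v0e2 (0.42 ± 0.04). Atp6v0a1, an isoform of the membrane-sector subunit a, fell, with 45.5, 44.9 and 42.4 CPM in the Ad-Cre-GFP libraries, against 87.2, 87.2 and 90.3 CPM in the Ad-GFP libraries (log2 fold change -0.99 ± 0.04 (SE), adjusted p = 1.2e-15). The other falls were those of Atp6v1g1 (-0.13 ± 0.04) and Wdr7 (-0.10 ± 0.05, adjusted p = 0.0495). With RLE scaling, with either other filter, with DESeq2 and without most single libraries, 2 of these genes rather than 3 were called lower. Annotated pseudogenes or other loci share close stretches with Atp6v1g1, which fell, and with Atp6v0c, Atp6v0a2 and Vma21, which were not called. The same holds for Atp6ap2, Atp6v1f, Atp6v0b, Ccdc115 and Atp6v0a4, which rose, and all these counts are uncertain.

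**Figure D3:**
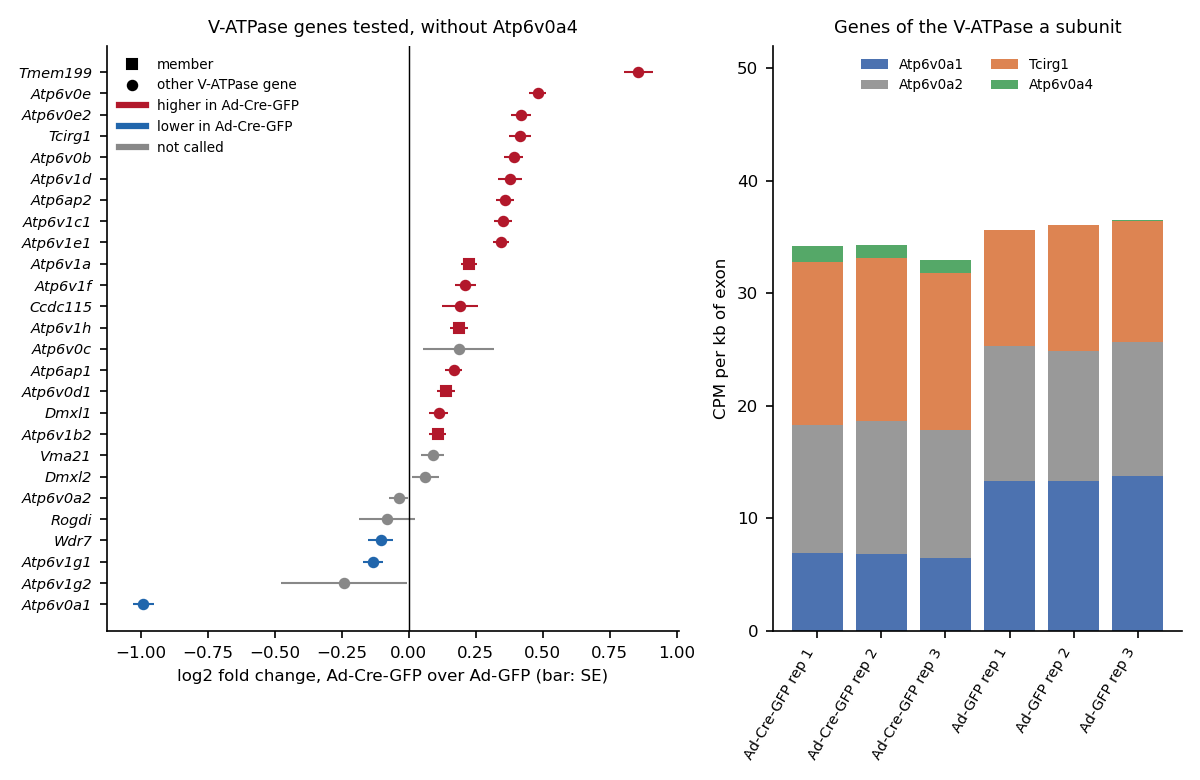
Left, log2 fold change (Ad-Cre-GFP over Ad-GFP, bars are SE) of the tested V-ATPase genes except Atp6v0a4, whose value of 4.47 lies off this scale; squares are members and circles other V-ATPase genes. Right, CPM per kb of exon of the 4 genes of subunit a, stacked for each library; the Atp6v0a1 part is smaller and the Tcirg1 part larger in the Ad-Cre-GFP bars than in the Ad-GFP bars.

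Both transcription factor genes fell, beside 35.8% of all genes tested called lower. Tfe3 (chromosome X, 7762560 to 7775202) was at 37.3, 38.5 and 38.4 CPM in the Ad-Cre-GFP libraries, against 55.9, 60.01 and 56.8 CPM in the Ad-GFP libraries (log2 fold change -0.60 ± 0.04 (SE), adjusted p = 3.96e-11). Tfeb (chromosome 17, 47737030 to 47792419) was at 12.9, 14.8 and 11.4 CPM in the Ad-Cre-GFP libraries, against 16.0, 15.7 and 15.8 CPM in the Ad-GFP libraries (log2 fold change -0.28 ± 0.08 (SE), adjusted p = 0.00403). The Tfe3 groups were far apart, whereas the highest Ad-Cre-GFP library of Tfeb was 14.8 CPM and the lowest Ad-GFP library 15.7 CPM. Without Ad-Cre-GFP replicate 3, the lowest library, the log2 fold change of Tfeb was -0.18 and the call was lost (adjusted p = 0.0508); over the alternatives its adjusted p ran from 0.000267 to 0.0508. The counts do not measure where the proteins are in the cell, which is how mTORC1 is known to control them. The related gene Mitf had 24 counts with Ad-Cre-GFP and 12 counts with Ad-GFP in all and was not tested, and Tfec had 0.

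Genes that control TFEB and TFE3 at the lysosome, listed together with the repressor gene Zkscan3, were called in both directions. One of them, Slc38a9, is also counted among the other lysosomal membrane protein genes. Of 15 tested, 9 rose, 4 fell and 2 were not called, beside 34.0% of all genes tested called higher and 35.8% lower. With upper-quartile scaling 8 were called higher and 5 lower. Rragc, a RAG GTPase that brings these factors to the lysosome, was at 119.8, 126 and 125 CPM in the Ad-Cre-GFP libraries, against 79.7, 79.7 and 79.6 CPM in the Ad-GFP libraries (log2 fold change 0.63 ± 0.03 (SE), adjusted p = 2.05e-13). Fnip2, a partner of folliculin in the complex that activates RagC, was at 30.9, 30.8 and 30.4 CPM in the Ad-Cre-GFP libraries, against 20.9, 20.2 and 18.8 CPM in the Ad-GFP libraries (log2 fold change 0.62 ± 0.05 (SE), adjusted p = 1.14e-09). Both rose clear of any overlap; another annotated locus, 4930535I16Rik, shares 267 bases with Rragc. Slc38a9, an arginine sensor of the same membrane (-0.50 ± 0.10), and Zkscan3, a zinc finger repressor of autophagy and lysosomal genes (-0.46 ± 0.04), fell; Slc38a9 and Zkscan3 share stretches of 376 and 342 bases with Gm6159 and Zkscan4.

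Compared per length, Psap and Lamp1 were the most abundant members. Levels per length are CPM divided by the annotated exon length of the gene in kilobases, which can overstate the length of the transcript that is used. Psap was at 281 ± 4.13 CPM per kb with Ad-Cre-GFP and 356 ± 7.77 CPM per kb with Ad-GFP (SD, n = 3 each), Lamp1 at 263 ± 4.70 CPM per kb with Ad-Cre-GFP and 203 ± 5.24 CPM per kb with Ad-GFP, Ctsd at 89.1 ± 1.35 CPM per kb with Ad-Cre-GFP and 109 ± 3.54 CPM per kb with Ad-GFP, Hexa at 88.3 ± 1.91 CPM per kb with Ad-Cre-GFP and 101.2 ± 4.65 CPM per kb with Ad-GFP and Ctsz at 92.2 ± 3.52 CPM per kb with Ad-Cre-GFP and 92.0 ± 2.46 CPM per kb with Ad-GFP. With Ad-Cre-GFP the order was Psap, Lamp1, Ctsz, Ctsd and Hexa, and the last 3 did not differ beyond their spread. With Ad-GFP the order was Psap, Lamp1, Ctsd, Hexa and Ctsz, each gap being larger than either SD. Of the Ctsd exon bases, 34.4% overlap Gm49369 on the same strand. Of those of Hexa, 12.8% overlap Tmem202 on the other strand. How reads there were counted is not known here, so the ranks of Ctsd and Hexa are uncertain. Psap and Lamp1 were closer to each other with Ad-Cre-GFP, since Psap fell and Lamp1 rose. Hexa, the member of the 5 not yet given by library, was at 172, 177 and 179 CPM in the Ad-Cre-GFP libraries, against 192, 204 and 210.3 CPM in the Ad-GFP libraries (log2 fold change -0.20 ± 0.03 (SE), adjusted p = 2.87e-05).

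Other lysosomal hydrolase genes also fell more often than they rose. Of 34 listed, 29 were tested and 7 of these were not called. In all 15 fell (51.7%, beside 35.8% of all genes tested) and 7 rose (24.1%, beside 34.0%). The median log2 fold change was -0.14. The largest fall by the naming rule was that of Ctso, cathepsin O, with 2.80, 2.64 and 2.34 CPM with Ad-Cre-GFP and 8.71, 8.69 and 10.7 CPM with Ad-GFP (log2 fold change -1.84 ± 0.12 (SE), adjusted p = 9.61e-12). Pld3, an exonuclease of the phospholipase D family (-0.83 ± 0.05), and Dnase2a, the acid DNase (-1.01 ± 0.11), fell too; Dnase2a shares 1607 annotated bases with Mast1 and is uncertain.

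Among 26 tested genes of other lysosomal membrane proteins, 9 rose (34.6%, beside 34.0% of all genes tested) and 12 fell (46.2%, beside 35.8%). Cd63, a tetraspanin of late endosomes, rose (0.65 ± 0.04), but it has a near-identical pseudogene, Cd63-ps, and its count is uncertain. Clcn7, the lysosomal chloride-proton exchanger, rose (0.58 ± 0.05), while the potassium channel gene Tmem175 (-0.57 ± 0.09) and Laptm4a (-0.55 ± 0.04) fell; Tmem175 shares 2090 annotated bases with Dgkq and its count is uncertain. Both cystatins with enough counts, inhibitors of cysteine cathepsins, were called, beside 69.8% of all genes tested. Cstb rose (0.33 ± 0.03) and Cst3 fell slightly (-0.075 ± 0.03). No cystatin was called lower with DESeq2, RLE scaling, no low-count filter or thinned libraries, nor without any of the Ad-Cre-GFP libraries or Ad-GFP replicate 3.

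Genes that deliver enzymes to the lysosome mostly fell. Of 13 tested, 9 fell (69.2%, beside 35.8% of all genes tested), 2 rose (15.4%, beside 34.0%) and 2 were not called. The median log2 fold change of the 13 was -0.23. Igf2r, the cation-independent mannose 6-phosphate receptor, was at 188, 181 and 184 CPM in the Ad-Cre-GFP libraries, against 308, 304 and 327 CPM in the Ad-GFP libraries (log2 fold change -0.76 ± 0.03 (SE), adjusted p = 5.67e-15). Gga2, an adaptor that sorts these receptors at the Golgi, was at 53.5, 53.6 and 52.6 CPM in the Ad-Cre-GFP libraries, against 85.9, 85.6 and 83.4 CPM in the Ad-GFP libraries (log2 fold change -0.67 ± 0.04 (SE), adjusted p = 2.36e-13). The sorting receptor genes Sorl1 (-0.76 ± 0.08) and Sort1, sortilin (-0.41 ± 0.03, with 339 bases shared with Gm12523), fell as well. Every Ad-Cre-GFP library of Igf2r and Gga2 lay below every Ad-GFP library; Gga2 has a copy, Gm5990, that matches 744 of its bases, and its count is uncertain.

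**Figure D4:**
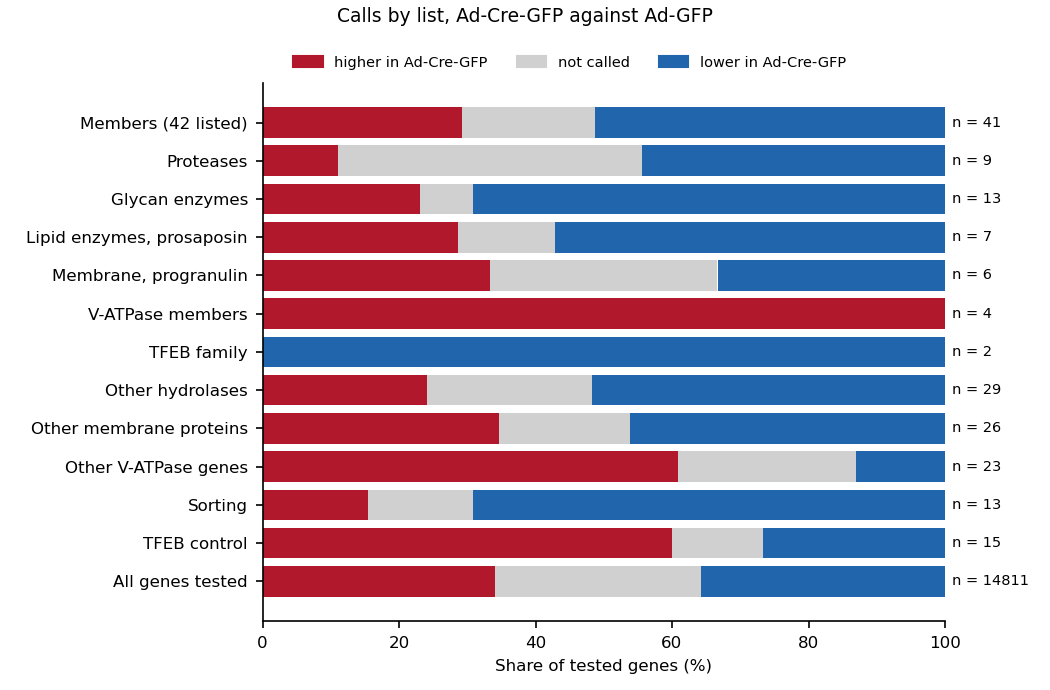
Share of the tested genes of each list called higher (red), not called (grey) or lower (blue) in Ad-Cre-GFP against Ad-GFP, with all 14811 genes tested in the bottom bar; n is the number tested. V-ATPase members and others have the longest red bars beside TFEB control genes, and the glycan enzymes and sorting genes have blue bars of 69.2%.

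Phagocytes and osteoclasts are rich in lysosomes; their markers are given here as sums of CPM without TMM scaling. Of 10 macrophage and immune markers, Adgre1 and Tyrobp had 0 counts in all 6 libraries, Csf1r had 2 counts with Ad-Cre-GFP and 0 with Ad-GFP, and Ptprc had 8 with Ad-Cre-GFP and 3 with Ad-GFP. The list summed to 6.80 to 7.46 CPM with Ad-Cre-GFP and 11.4 to 13.8 CPM with Ad-GFP, mostly Cd14 and Cd68; Cd14 fell and Cd68 was not called. The osteoclast markers Acp5, Dcstamp and Ocstamp had 0 counts, and the list summed to 9.07 to 9.70 CPM with Ad-Cre-GFP and 2.65 to 3.48 CPM with Ad-GFP, nearly all of it Nfatc1, which rose (1.68 ± 0.11).

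Other marker lists moved with the groups, and their part in the enzyme falls was not tested. Their calls stand beside 69.8% of all genes tested called, 34.0% higher and 35.8% lower. All 5 tested stromal fibroblast markers, of 7, fell, and the list summed to 272 to 292 CPM with Ad-Cre-GFP and 401 to 416 CPM with Ad-GFP. Most of the sum was Col1a1, which averaged 261 CPM with Ad-Cre-GFP and 291 CPM with Ad-GFP with TMM scaling. Dcn averaged 24.7 CPM with Ad-Cre-GFP and 93.0 CPM with Ad-GFP on the same scale. Col1a2 had 6 counts with Ad-Cre-GFP and 4 with Ad-GFP, and Lum was at 0 counts. All 10 ovarian surface epithelium markers were called, 4 higher and 6 lower, with sums of 3166 to 3219 CPM with Ad-Cre-GFP and 3742 to 3780 CPM with Ad-GFP; Msln rose (1.10) while Krt19 (-1.60), Gata4 (-1.37) and Wt1 (-1.15) fell on the log2 scale. Of 6 granulosa markers, 3 rose and 1 fell, with sums of 320.1 to 332 CPM with Ad-Cre-GFP and 135 to 147 CPM with Ad-GFP, mostly Inhbb, and Fshr and Cyp19a1 at 0. Of 7 endothelial markers, 3 rose, with sums of 21.8 to 23.0 CPM with Ad-Cre-GFP and 8.401 to 9.90 CPM with Ad-GFP, and Tie1 and Emcn at 0. Mitochondrial mRNAs took 2.66 ± 0.0814% of counts with Ad-Cre-GFP and 2.70 ± 0.140% with Ad-GFP.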

How the data were processed

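The authors deposited unnormalised counts of reads for each gene and library, taken from BAM alignments, per the file headers. RNA was column-purified and poly(A)-selected, per the labels' protocols. Named in the submitters' processing notes are GRCm38, kallisto 0.46.2 and sleuth 0.30.1; the sources used here give no aligner, counting tool or strand setting. Gene IDs were matched to GENCODE M21 (GRCm38), 48058 of 48440. After filterByExpr, which 14811 genes passed, edgeR 4.0.16 (R 4.3.3) gave TMM factors and a robust quasi-likelihood test without replicate block, whose p-values were adjusted over all of these genes (Benjamini-Hochberg, threshold 0.05). A log2 fold change sets Ad-Cre-GFP over Ad-GFP, and its SE is its size over the square root of F. Sums over genes use CPM without TMM, and levels per length divide by union exon length. The procedure was tested on simulated data. Near-identical copies were sought with minimap2 2.31-r1302 (at least 200 bases at 90% identity).

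The members and lists were chosen with earlier results of these data known. In each role up to 4 called members with the largest change, the TFEB family and the 5 members highest per length were to be given by library; Neu1, Gusb, Sgsh and Tpp1 were added after their values were seen. Of other lists, up to 4 called genes with the largest change and a mean of at least 5 CPM were named; others were named after their values were seen, and a few genes are not reported here. Replicate pairs differed by a chi-square of 2.04 to 4.27 per gene, against 1 for sampling noise, and all were kept. The labels do not say whether replicates were separate cultures, so p-values reflect only the variation among these 6 samples, possibly technical. Same-numbered libraries did not deviate together (correlations 0.00502 to 0.0510). Alternatives were RLE and upper-quartile scaling, other filters, DESeq2 1.42.0, limma-voom (limma 3.58.1), non-robust dispersion, the block, and omission of every library in turn; thinning to the smallest total was added after seeing the data.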

Additional observations from a re-analysis of the deposited data

How the results depend on the processing

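Over the 15 alternative settings, 597 of 612 values of single members kept their direction and side of the threshold. The call was lost for Sgsh with DESeq2 and without Ad-GFP replicate 3, and for Tfeb without Ad-Cre-GFP replicate 3. The other 12 values, of 7 members that were not called, changed sign and stayed uncalled; 0 values of called members changed sign. The log2 fold change was -0.00071 for Ctsa and -0.0098 for Ctsz with upper-quartile scaling, 0.0027 for Grn with no low-count filter, and -0.014 for Ctsh and 0.0027 for Gla with thinned libraries. When each library was left out its lowest and highest values were -0.020 and 0.038 for Ctsz, -0.21 and 0.39 for Ctsh, -0.018 and 0.34 for Ctsk, -0.11 and 0.00023 for Gla, -0.0089 and 0.060 for Ppt1 and -0.022 and 0.0074 for Grn. Members called higher numbered 11 to 12 and members called lower 20 to 21 when each library was left out. With the replicate number as a block they numbered 12 and 21, all genes called numbered 10478, and the block changed no call among the members; the numbers are not shown to pair the libraries. With DESeq2 they numbered 11 and 21, and with all libraries thinned to the smallest total 12 and 21. The median log2 fold change of the members ran from -0.17 to -0.13 when each library was left out, and was -0.17 with the thinned libraries. Without mitochondrially encoded counts the members took 0.490% of counts with Ad-Cre-GFP and 0.566% with Ad-GFP. The cause of these shifts was not tested. Depth limits Ctsh, Ctsk and Ctss, each under 1 CPM.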

Other observations

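The genes of V-ATPase subunit a, which is known to set where the pump resides, changed in their proportions. Tcirg1, the isoform of osteoclast and lysosomal membranes, was at 66.8, 66.6 and 64.5 CPM in the Ad-Cre-GFP libraries, against 47.2, 51.5 and 49.5 CPM in the Ad-GFP libraries (log2 fold change 0.42 ± 0.04 (SE), adjusted p = 8.19e-09). Atp6v0a4, the isoform of acid-secreting kidney cells, had 205, 170 and 155 counts with Ad-Cre-GFP and 6, 6 and 6 counts with Ad-GFP (log2 fold change 4.47 ± 0.22 (SE), adjusted p = 5.74e-14). Atp6v0a2, an isoform of the Golgi and endosomes, was not called (-0.038 ± 0.04). Compared per length, Atp6v0a1 made up 19.98 ± 0.331% of the 4 isoforms with Ad-Cre-GFP and 37.3 ± 0.440% with Ad-GFP (SD, n = 3 each), and Tcirg1 made up 42.4 ± 0.159% with Ad-Cre-GFP and 29.8 ± 1.13% with Ad-GFP. The share of Atp6v0a4 was 3.64 ± 0.424% with Ad-Cre-GFP and 0.154 ± 0.0223% with Ad-GFP. Their sum was 33.8 ± 0.734 CPM per kb with Ad-Cre-GFP and 36.1 ± 0.407 CPM per kb with Ad-GFP. Tcirg1 and Atp6v0a4 were singled out after their values were seen; Atp6v0a4 shares 259 annotated bases with D630045J12Rik.

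Enzymes that take heparan sulfate apart step by step did not move as a block. Among the 5 members of this chain, Idua, Ids and Naglu fell and Gusb and Sgsh rose. Hgsnat, the acetyltransferase of this chain, fell, averaging 40.0 ± 0.891 CPM with Ad-Cre-GFP and 46.5 ± 2.01 CPM with Ad-GFP (log2 fold change -0.22 ± 0.04 (SE), adjusted p = 0.000201). Of the 4 sulfatase members, Arsa, Arsb and Ids fell and Sgsh rose, while Sumf1, which encodes the enzyme that activates sulfatases, rose (0.26 ± 0.04). Gm2a, the activator protein of ganglioside breakdown, rose, with 180.2 ± 2.68 CPM with Ad-Cre-GFP and 117 ± 3.86 CPM with Ad-GFP (0.63 ± 0.03), whereas Hexa fell. These genes were grouped after their values were seen.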
